A study of Mus musculus with 12 samples.

Results

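Genes that sense, signal and repair breaks in DNA were followed through the livers of 12 male C57BL/6J mice, 6 of them lacking a part of telomerase. The genes are 9 in number, of 19938 measured: Nbn, Atm, Atr, H2ax, Trp53bp1, Brca1, Chek2, Chek1 and Lig4. They were chosen by name, and each is represented by the probe set that carries its symbol alone and has the highest mean over the 12 arrays. A probe set is a group of short probes read as 1 value, and is called a probe here.

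The mice fell into 4 groups of 3 animals. The mTERT KO group lacks mTERT, the reverse transcriptase of telomerase encoded by Tert, and the mTR KO group lacks mTR, the RNA template encoded by Terc. Both are first-generation (G1) knock-outs (KO), the first generation of mice without telomerase. Each line has its own wild-type group, mTERT WT and mTR WT, and the number in a label, 1 to 3, was read as the set of littermates. Ages are matched by the series text without being given, and no group received a treatment. The series asks how the 2 deletions compare in gene expression and in the response to DNA damage.

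A broken DNA end is first bound by a complex of Nbn, Mre11a and Rad50, which brings in the kinase Atm, while single-stranded DNA brings in the kinase Atr with its partner Atrip. Atm and related kinases mark the histone H2ax around the break, and Trp53bp1 and Brca1 gather there and favour different routes of repair. Chek2, downstream of Atm, and Chek1, downstream of Atr, halt the cell cycle, and Lig4 seals the ends in end joining. Eroded chromosome ends are known to set off the same signalling. Much of it runs through phosphorylation of proteins, which an array of RNA does not measure, and most hepatocytes of an adult liver do not divide.

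The values are log2 intensities, on which a difference of 1 is a 2-fold change. Olfactory receptors, genes without use in the liver, gave the background level: the 95th percentile of their probes averaged 4.34 over the arrays. The 10 hepatocyte markers averaged between 11.98 and 12.23 in all arrays. RNA of other tissues was present in some arrays. Pancreas acinar genes, of which 11 of 14 listed were measured, averaged 3.81 to 4.04 in 7 arrays. They averaged 11.55 in mTR KO 1 and 10.22 in mTERT KO 1. In mTERT WT 2 the average was 9.32, in mTERT WT 1 it was 7.73, and mTR WT 2 had 7.20. Skeletal muscle genes, all 13 measured, averaged 3.85 to 4.50 except in mTERT WT 1 (6.89) and mTERT WT 3 (6.46, the only other array above that range). As a check of the labels, Tert read 3.95, 4.07 and 4.15 in mTERT KO against 4.13, 4.78 and 4.83 in mTERT WT, so that the WT array of set 1 lay among the KO arrays. Terc was at or near the background level in all 4 groups, with means of 4.11 to 4.29, and checks nothing.

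The promoters of 7 of the 9 genes were in the RefSeq table of build GRCm38.p6, from 250 bases before the start of the gene to 50 bases after it. The 4 printed here are those of the signalling kinases: Atm, Atr and Chek2, which were lower together in some of the arrays below, and Chek1, which was not. Letters are in capitals where a CCAAT box (CCAAT), a GC box (GGGCGG) or an E2F motif was found on either strand. The E2F search used TTCCCGC and its variants, which were TTCGCGC, then TTGGCGC and lastly TTGCCGC. All windows are read along the strand of the gene. The windows are chr9:53536622-53536921 on the minus strand for Atm, chr9:95857347-95857646 on the plus strand for Atr, chr5:110839733-110840032 on the plus strand for Chek2 and chr9:36726609-36726908 on the minus strand for Chek1.

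Atm: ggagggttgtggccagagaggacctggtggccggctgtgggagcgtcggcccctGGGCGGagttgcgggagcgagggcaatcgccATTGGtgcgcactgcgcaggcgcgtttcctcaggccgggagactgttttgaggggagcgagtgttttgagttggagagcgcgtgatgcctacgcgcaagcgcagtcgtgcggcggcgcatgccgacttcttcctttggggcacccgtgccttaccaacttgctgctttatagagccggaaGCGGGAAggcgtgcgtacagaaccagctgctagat
Atr: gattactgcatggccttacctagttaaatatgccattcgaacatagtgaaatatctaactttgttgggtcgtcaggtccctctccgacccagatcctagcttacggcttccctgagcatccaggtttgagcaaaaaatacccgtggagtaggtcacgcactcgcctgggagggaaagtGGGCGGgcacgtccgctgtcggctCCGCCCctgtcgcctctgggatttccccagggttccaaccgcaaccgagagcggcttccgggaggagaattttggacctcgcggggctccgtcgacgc
Chek2: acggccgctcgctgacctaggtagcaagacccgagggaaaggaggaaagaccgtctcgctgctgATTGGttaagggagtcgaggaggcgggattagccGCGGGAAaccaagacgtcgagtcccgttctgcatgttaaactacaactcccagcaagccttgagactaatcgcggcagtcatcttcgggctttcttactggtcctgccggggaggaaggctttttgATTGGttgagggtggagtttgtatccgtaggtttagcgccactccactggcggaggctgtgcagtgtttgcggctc
Chek1: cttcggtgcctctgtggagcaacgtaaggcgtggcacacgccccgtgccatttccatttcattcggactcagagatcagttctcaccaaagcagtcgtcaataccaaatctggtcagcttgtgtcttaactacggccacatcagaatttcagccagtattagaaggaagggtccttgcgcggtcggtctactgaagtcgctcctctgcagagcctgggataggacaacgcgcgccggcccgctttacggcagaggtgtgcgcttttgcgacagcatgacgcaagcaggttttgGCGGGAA

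An E2F motif, named for the factors that drive genes of S phase, was found in 5 of the 7 members, against 9.57% of the 32851 promoters in the table. In Atm it lies 15 bases after the start, in Brca1 21 bases after and in Chek1 43 bases after, whereas in Chek2 it lies 152 bases before. Lig4 has 2 starts in the table, with E2F matches 79 and 81 bases before them. Atr and Trp53bp1 held none. A CCAAT box was found in 3 of the 7 members, Atm, Brca1 and Chek2, against 37.4% of all promoters, and a GC box in 4, Atm, Atr, Lig4 and Trp53bp1, against 35.7%. Neither the CHR element (TTTGAA, in 17.9% of promoters) nor the CRE (TGACGTCA, in 1.79%) was found in any of the 7, and none of the 16 matches overlapped another. The windows of the 7 members held 53.7% to 67.3% G and C, against a median of 52.7% in all promoters. A match is a run of letters and not a bound site, and Atm, Atr and Chek2, which were lower in the same arrays, share none of the 3 motifs between all of them.

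Of the 9 genes, 6 were above the background level in all 12 arrays. Nbn ranged from 6.12 to 6.83, Atm from 5.38 to 6.09, Atr from 5.24 to 6.23, H2ax from 4.84 to 5.60, Lig4 from 4.98 to 5.72 and Trp53bp1 from 4.78 to 5.26. Brca1, which loads the recombinase in homologous recombination, stayed between 3.84 and 4.11 and was above the background level in 0 of 12 arrays. Chek1, between 3.90 and 4.45, was above it in 1 array, mTERT KO 3, and Chek2, between 4.14 and 4.68, in 5 arrays. Differences in these 3 genes are therefore differences between readings at or near the background. Probes bind with different strength, so the level of 1 gene is not set against that of another. In RNA from whole liver, fewer cells of a type and less RNA per cell cannot be told apart.

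**Figure D1:**
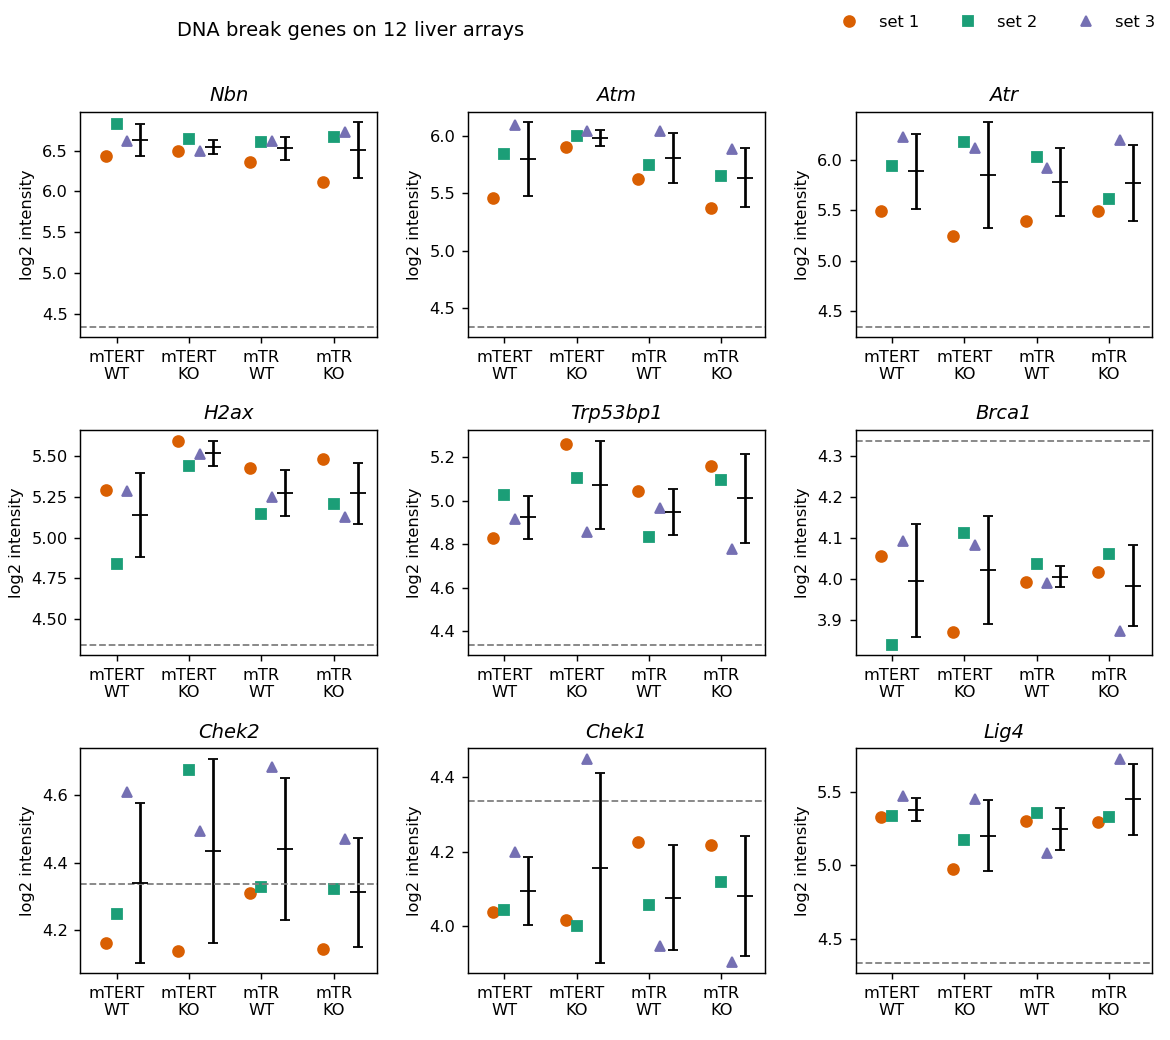
Log2 intensity (y axis, a separate scale for each gene) of the 9 genes in the 4 groups (x axis), 1 point per array, coloured and shaped by set. Black marks are the group mean ± SD (n = 3) and the dashed line is the background level of 4.34. The KO and WT points of the mTERT line separate for H2ax alone, and the 4 set 1 points of Atr lie under its other 8.

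Loss of mTERT moved none of the 9 genes past the test. H2ax, the histone that is marked at breaks, came nearest. It read 5.60, 5.44 and 5.52 in mTERT KO 1, 2 and 3, and 5.29, 4.84 and 5.29 in mTERT WT 1, 2 and 3. Every KO array lay above every WT array, and so the KO was necessarily higher in 3 of 3 sets, by 0.31, 0.60 and 0.23. The group means were 5.52 ± 0.077 (SD, n = 3) and 5.14 ± 0.260 (SD, n = 3). The log2 difference was 0.38 (SE 0.143, 95% interval 0.07 to 0.69), with an unadjusted p of 0.0219 and an adjusted p of 1 by limma. By adjusted p, 0 of 20197 probes passed in this comparison (0%), and 283 had an unadjusted p under 0.05. H2ax was 1 of 9 genes whose KO arrays lay above the WT arrays without overlap, and 2.47% of all tested probes did the same; 0 of 9 lay below, against 1.86% of probes.

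The WT side of the H2ax difference held the pancreas and muscle RNA described above. The lowest WT reading, 4.84, came from mTERT WT 2, with a pancreas mean of 9.32, and without that array the difference was 0.23. The KO array with pancreas RNA, mTERT KO 1, gave the highest reading, 5.60. Without all 5 pancreas-bearing arrays the difference was 0.19, with mTERT WT 3, which held muscle RNA, as the only mTERT WT array left. Without the 2 muscle-bearing arrays, which leaves mTERT WT 2 as the only mTERT WT array, it was 0.68. In each of these fits the single array is assumed to vary like the other groups. The part of this RNA in the difference was not tested. With the litter as a replicate block the difference stayed at 0.38, with an unadjusted p of 0.00304 and an adjusted p of 0.853 by limma.

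Upstream of H2ax, the sensors and kinases overlapped between mTERT KO and WT. Nbn read 6.50, 6.64 and 6.49 in KO against 6.44, 6.83 and 6.62 in WT, a difference of −0.08 (SE 0.163), and the KO was higher in 1 of 3 sets. Atm read 5.90, 6.00 and 6.04 in KO against 5.46, 5.84 and 6.09 in WT. The KO arrays of Atm lay close together within the wider range of the WT arrays, and the difference was 0.18 (SE 0.176). Its size rests on single WT arrays: leaving out mTERT WT 1 gave 0.01, and leaving out mTERT WT 3 gave 0.33. Atr read 5.24, 6.18 and 6.12 in KO against 5.49, 5.95 and 6.23 in WT, a difference of −0.04 (SE 0.290). In both groups the lowest Atr reading was that of set 1.

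Among the mediators and effectors, Trp53bp1, which favours end joining, read 5.26, 5.10 and 4.86 in mTERT KO against 4.83, 5.03 and 4.92 in mTERT WT, a difference of 0.15 (SE 0.133). The difference was 0.03 (SE 0.105) for Brca1, 0.10 (SE 0.170) for Chek2 and 0.06 (SE 0.139) for Chek1. Lig4, the ligase of end joining, read 4.98, 5.17 and 5.45 in KO against 5.33, 5.33 and 5.47 in WT. Its KO array was the lower in 3 of 3 sets, by 0.35, 0.16 and 0.02, but the groups overlapped and the difference was −0.18 (SE 0.148, unadjusted p 0.259 by limma). It was −0.06 without mTERT KO 1 and −0.30 without mTERT KO 3. Every adjusted p of the 9 genes was 1 by limma, and all 9 of the 95% intervals lay within a 2-fold change either way, the widest bounds being −0.68 and 0.69.

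Loss of mTR moved none of the 9 genes past the test either. For H2ax the groups overlapped: mTR KO animals read 5.49, 5.21 and 5.13, mTR WT animals 5.43, 5.14 and 5.25. The difference was 0.00 (SE 0.143, 95% interval −0.31 to 0.31). Atm read 5.38, 5.65 and 5.89 in KO against 5.63, 5.75 and 6.05 in WT. The KO was the lower one in 3 of 3 sets, by 0.25, 0.10 and 0.16, with overlapping groups and a difference of −0.17 (SE 0.176), which was −0.04 without mTR KO 1 and −0.05 without mTR WT 3. Chek2 read 4.15, 4.32 and 4.47 in KO against 4.31, 4.33 and 4.68 in WT. Its KO reading was lower in 3 of 3 sets, by 0.17, 0.01 and 0.21, with overlapping groups. The difference was −0.13 (SE 0.170), and −0.01 without mTR WT 3. The share of all probes with the same direction in 3 of 3 sets was not counted in either line. These Chek2 readings lay on both sides of the background level. No p of the 9 genes was under 0.195 before adjustment, and every adjusted p was 1 by limma. In this comparison 0 of 20197 probes passed (0%), and 195 had an unadjusted p under 0.05.

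For Lig4 the mTR KO animals read 5.29, 5.33 and 5.72, the mTR WT animals 5.30, 5.35 and 5.08. Sets 1 and 2 were nearly level and set 3 was apart by 0.64 in favour of the KO, so the difference of 0.20 (SE 0.148) rests on set 3; it was 0.07 without mTR KO 3. Atr read 5.49, 5.62 and 6.20 in KO against 5.40, 6.03 and 5.92 in WT, a difference of −0.02 (SE 0.290). Nbn read 6.12, 6.67 and 6.73 in KO against 6.36, 6.61 and 6.61 in WT, a difference of −0.02 (SE 0.163). The lowest reading of Nbn over the 12 arrays, 6.12, was that of mTR KO 1, the array with the highest pancreas mean. The differences of Trp53bp1, Brca1 and Chek1 were 0.06 (SE 0.133), −0.02 (SE 0.105) and 0.00 (SE 0.139). In 0 of 9 genes did the KO and WT arrays part without overlap, against 4.48% of probes in either direction. The 9 intervals lay between −0.65 and 0.62.

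The effects of the 2 deletions were set against each other in a test of their difference, mTR minus mTERT. H2ax differed by −0.38 (SE 0.203, unadjusted p 0.0869) and Lig4 by 0.38 (SE 0.210, unadjusted p 0.0961) by limma. For Lig4 the mTERT difference was −0.18 and the mTR difference 0.20. Without mTERT WT 2 the H2ax value was −0.23, and without mTR KO 3 that of Lig4 was 0.24. Atm, at 0.18 for mTERT and −0.17 for mTR, differed by −0.35 (SE 0.249, unadjusted p 0.183 by limma). It differed by 0.01 without the pancreas-bearing arrays, which leaves mTERT WT 3 as the only mTERT WT array. None passed, with an adjusted p of 1.00 for each by limma, and 0 of 20197 probes passed (0%) against 293 with an unadjusted p under 0.05. The intervals of this difference reached from −0.90 to 0.92 over the 9 genes, which is nearly a 2-fold difference in either direction. With the litter as a replicate block, 0 passed too. In that fit 2 of the 9 genes and 1264 of 20197 probes had an unadjusted p under 0.05 by limma. The average of both effects was between −0.05 and 0.19, the latter for H2ax (SE 0.101, unadjusted p 0.0861 by limma). That H2ax average was 0.12 without mTERT WT 2. It was 0.01 without the pancreas-bearing arrays, where mTERT WT 3 is the only mTERT WT array left. Without the muscle-bearing arrays, where only mTERT WT 2 is left, it was 0.34. For the average, 0 of 9 genes and 0 of all probes (0%, with 143 probes at an unadjusted p under 0.05 by limma) passed. With the replicate block 0 passed as well, and 1 of the 9 genes and 639 of 20197 probes had an unadjusted p under 0.05 by limma. The 2 WT groups differed by −0.13 to 0.13 over the 9 genes, with 0 of 9 genes and 0 of all probes passing (0%, with 525 at an unadjusted p under 0.05) by limma.

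**Figure D2:**
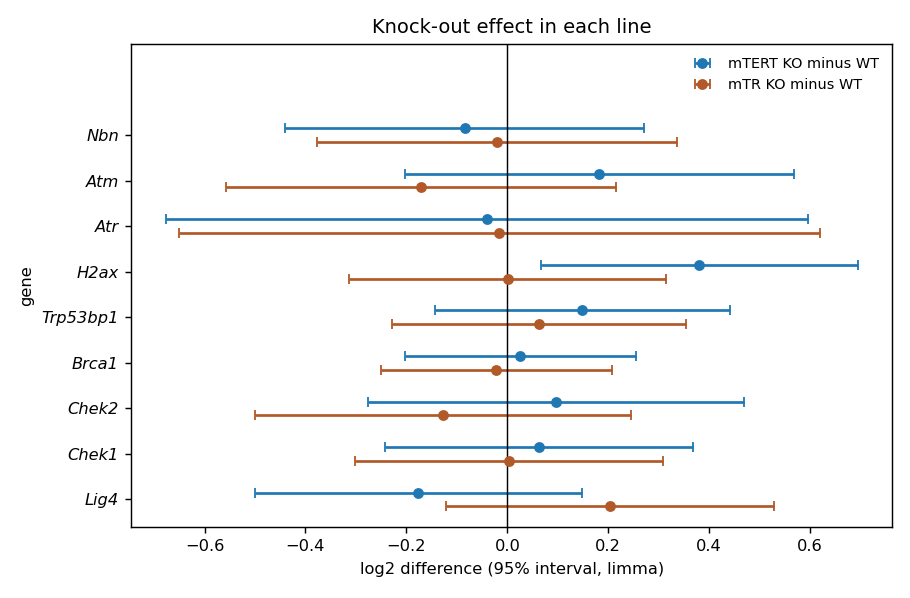
Log2 difference KO minus WT (x axis) for each gene (y axis) in the mTERT line (blue) and the mTR line (brown). Points are the limma estimates over 12 arrays and bars their 95% intervals. The interval for H2ax in the mTERT line, 0.07 to 0.69, is the only one of the 18 that leaves out 0, before adjustment over all probes.

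More of these genes passed the test by set than by genotype, but the 2 tests are not alike. The genotype fit held no term for the set, so differences between sets stayed in its spread. For Atr the SE was 0.290 for either deletion and 0.110 for the set. With the litter as a replicate block, 0 of the 9 genes passed for either deletion by limma. With group means removed, the 4 arrays of number 1 differed from the 8 of numbers 2 and 3 in 5 of the 9 genes by limma: Atr, Atm, Nbn and Chek2 were lower and H2ax was higher. Over all probes 21.1% passed as lower and 17.1% as higher, so that passing was common in this comparison and a count of 4 lower and 1 higher is read against those shares. The mTERT and the mTR arrays of number 1 come from different litters, so the 4 arrays stand for 2 litters and p-values can be too small. With the litter as a random block, 4 of the 9 genes passed, H2ax dropping out. Of the 4 arrays of set 1, 3 held pancreas RNA, as did 2 of the other 8; the array of set 1 that did not was mTR WT 1, with a pancreas mean of 3.89.

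Atr, the kinase of single-stranded DNA, parted most. In set 1 the mTERT line read 5.24 (KO) and 5.49 (WT), then the mTR line 5.49 (KO) and 5.40 (WT), while it lay between 5.62 and 6.23 with a median of 6.08 in the other 8 arrays. The 4 arrays all lay below the other 8. The groups without overlap were set 1 lower for 1 of 9 genes, against 12.6% of probes, and set 1 higher for 0 of 9, against 10.4% of probes. The difference was −0.63 (SE 0.110, 95% interval −0.87 to −0.39, adjusted p 0.000977 by limma), and within groups it was −0.91 and −0.60 for mTERT (KO, then WT), then −0.42 and −0.58 for mTR. Of the arrays with pancreas RNA, mTERT KO 1, mTERT WT 1 and mTR KO 1 read 5.24, 5.49 and 5.49, and mTERT WT 2 and mTR WT 2 read 5.95 and 6.03. Of the arrays without it, mTR WT 1 read 5.40 and the others 5.62 to 6.23. The part of pancreas RNA in the Atr difference was not tested. Without the 5 pancreas-bearing arrays, which leaves mTR WT 1 alone for set 1, the difference was −0.53. That value is mTR WT 1 minus mTR WT 3, 1 array against 1.

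Atm was lower in set 1 as well, at −0.32 (SE 0.0873, adjusted p 0.0124 by limma). It read 5.90, 5.46, 5.38 and 5.63 in the arrays of set 1, in the order given for Atr, and 5.65 to 6.09 in the others, so that mTERT KO 1 lay among the others. Within groups the difference ran from −0.51 in mTERT WT to −0.12 in mTERT KO. The adjusted p of Atm was 0.0679 without mTERT WT 1 and 0.0514 without mTR KO 1 by limma, so the call rests on each of these arrays; without the 2 muscle-bearing arrays it was 0.0572.

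Nbn read 6.50, 6.44, 6.12 and 6.36 in the same order, against 6.49 to 6.83 elsewhere, and only mTERT KO 1 reached the range of the other arrays. The difference was −0.30 (SE 0.0810, adjusted p 0.0133 by limma), and it ranged from −0.58 in mTR KO to −0.07 in mTERT KO. Without mTR KO 1 the adjusted p was 0.0800 by limma. A further Nbn probe, which read 4.32 to 4.76 and so lay at or just above the background level, was lower in set 1 in 4 of 4 groups, by −0.18 (SE 0.0777, adjusted p 0.0949 by limma).

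Chek2 read 4.14, 4.16, 4.15 and 4.31 in set 1, all below the background level, and 4.25 to 4.68 in the other arrays, where 5 of 8 were above it. The difference was −0.29 (SE 0.0907, adjusted p 0.0254 by limma), with all 4 groups lower, from −0.45 in mTERT KO to −0.19 in mTR WT. The adjusted p was 0.114 without mTERT KO 1, 0.0625 without mTERT WT 1 and 0.0580 without mTR KO 1 by limma.

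H2ax was the member that was higher in set 1. It read 5.60, 5.29, 5.49 and 5.43 there, against 4.84 to 5.52 in the other arrays, with overlap. The difference was 0.22 (SE 0.0807, adjusted p 0.0457 by limma) and positive in 4 of 4 groups, from 0.12 to 0.32. This call was the least firm of the 5: it was lost in 14 of 21 alternatives, among them centring each array on its median (adjusted p 0.0638), the litter as a random block (0.0574) and leaving out any of 10 single arrays (up to 0.151 without mTR KO 1), all by limma. Without the 5 pancreas-bearing arrays each difference is mTR WT 1 minus mTR WT 3, 1 array against 1, which cannot carry a call. For Atm, Nbn, Chek2 and H2ax it was then −0.42, −0.25, −0.37 and 0.18.

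The other members did not pass. Lig4 was at −0.14 (SE 0.0991, adjusted p 0.287), Trp53bp1 at 0.13 (SE 0.0884, adjusted p 0.280), Chek1 at 0.03 (SE 0.0999, adjusted p 0.812) and Brca1 at −0.03 (SE 0.0738, adjusted p 0.800) by limma. In each of them the 4 groups differed in sign. Chek1 was lower in set 1 in both mTERT groups, by 0.21 and 0.08, and higher in both mTR groups, by 0.21 and 0.22; whether the lines differed in this was not tested.

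**Figure D3:**
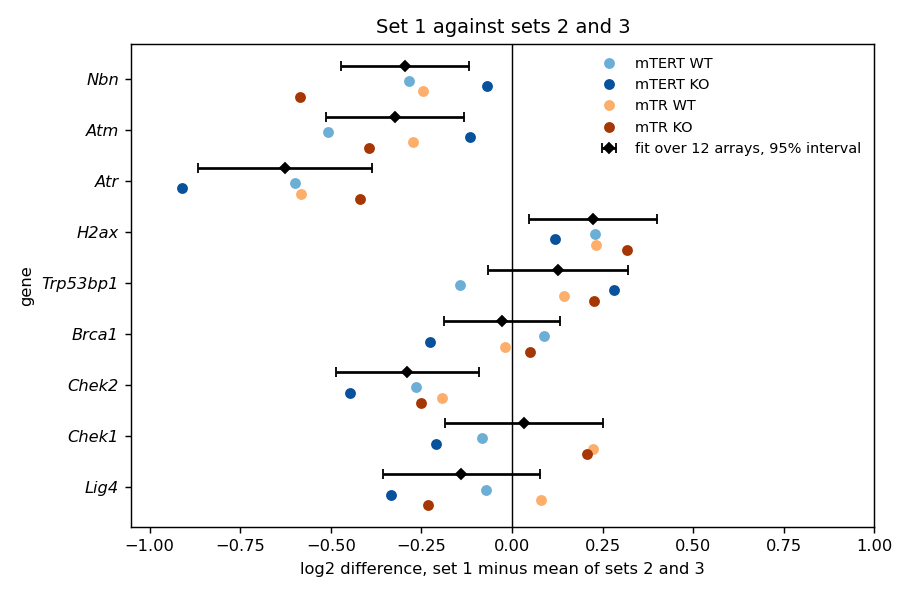
Log2 difference of set 1 from the mean of sets 2 and 3 (x axis) for each gene (y axis). Black diamonds are limma estimates with 95% intervals over 12 arrays, and coloured points the difference within each of the 4 groups. All 4 points lie below 0 for Nbn, Atm, Atr and Chek2 and above 0 for H2ax.

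The partners of the 9 genes were followed by name. In the complex that binds broken ends, Rad50 read 5.30, 4.67, 4.98 and 5.32 in set 1, in the order given for Atr, against 5.63 to 6.01 in the other arrays, and Mre11a read 4.82, 4.91, 4.98 and 5.07 against 5.30 to 5.51. In both genes the 4 arrays of set 1 lay below the other 8. With Nbn, all 3 subunits were lower in set 1: Rad50 at −0.80 (SE 0.108, adjusted p 0.000159) and Mre11a at −0.47 (SE 0.0681, adjusted p 0.000274) by limma. These calls were lost in 1 of 21 alternatives each, without the pancreas-bearing arrays. There the differences, −0.60 and −0.28, are those of mTR WT 1 from mTR WT 3. Atrip, the partner of Atr, was higher in set 1 by 0.27 (SE 0.0922, adjusted p 0.0393 by limma), while Atr itself was lower; the Atrip call was lost in 12 of 21 alternatives, among them leaving out any of the 4 arrays of set 1.

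Of the genes that act with Trp53bp1 and Brca1, Rif1, which restrains the trimming of ends, was at −0.62 (SE 0.0696, adjusted p 4.21e-05 by limma) in set 1. Bard1, which binds Brca1, was higher by 0.45 (SE 0.0929, adjusted p 0.00253 by limma), reading 4.75 or more in set 1 and 4.26 to 4.68 elsewhere, where 3 of the 8 arrays were below the background level. Its 2 further probes were below that level in all 12 arrays, and in set 1 they were lower in 3 of 4 and 1 of 4 groups. Mdc1, which reads marked H2ax, was at −0.15 (adjusted p 0.204 by limma). Of the partners of Lig4, which itself did not pass, Xrcc5, a subunit of the ring that holds broken ends, was at −0.57 (SE 0.0660, adjusted p 5.43e-05), Xrcc6, its other subunit, at −0.19 (adjusted p 0.0204), Xrcc4, which binds Lig4, at −0.27 (adjusted p 0.0479) and the kinase gene Prkdc at 0.07 (adjusted p 0.426) by limma. Mdm2, a target of p53 downstream of Atm and Chek2, was at −0.33 (adjusted p 0.00521 by limma). Without the pancreas-bearing arrays none of these calls remained. In that fit each difference is mTR WT 1 minus mTR WT 3, 1 array against 1. Between these 2 arrays Xrcc4 was at 0.09, Rif1 at −0.50, Bard1 at 0.63, Xrcc5 at −0.58, Xrcc6 at −0.23 and Mdm2 at −0.31. The Xrcc4 call was lost in 12 other alternatives, and that of Xrcc6 also without mTR KO 1, mTR WT 1 or the muscle-bearing arrays. In the KO comparisons none of these partners had an adjusted p under 1 by limma in either line. Clspn, which works with Chek1, read below the filter and was not tested, and Rnf8, Trp53 and Cdkn1a were not analysed here.

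Lists of genes by role, which include the 9, held 71 names, of which 63 were measured and 55 tested. Neither deletion moved any of the 55 past the test (0 called by limma; 1 had an unadjusted p under 0.05 in each line). Their median difference was 0.01 for mTERT, with 28 above 0, and −0.02 for mTR, with 22 above 0, beside medians of 0.01 and −0.01 over all probes. In set 1, 26 of the 55 passed as lower and 6 as higher, which is 47.3% and 10.9%, beside 21.1% and 17.1% of all probes. Their median was −0.17, beside −0.02 over all probes. Those counts were 0 and 0 without the pancreas-bearing arrays, the lower count was 16 without mTERT WT 1 or without both muscle-bearing arrays and 14 without mTR KO 1, and the higher count was 3 without mTERT WT 1 or without mTR WT 1. Sensors and apical kinases had 9 lower and 2 higher of 15 tested (60% and 13.3%), and chromatin mediators 6 and 3 of 13 (46.2% and 23.1%). Checkpoint kinases and effectors had 6 and 0 of 10 (60% and 0%), and end joining 4 and 1 of 11 (36.4% and 9.09%). With 8 to 15 genes in a list, and genes shared between lists, these counts only describe the lists. No list was tested against the background shares. In homologous recombination, where 6 of 14 measured genes fell below the filter, 1 of 8 was lower, Rad52, at −0.22 (adjusted p 0.0456 by limma), a call that 13 of 21 alternatives did not keep. Brca1 and Prkdc are among the genes in more than 1 list.

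**Figure D4:**
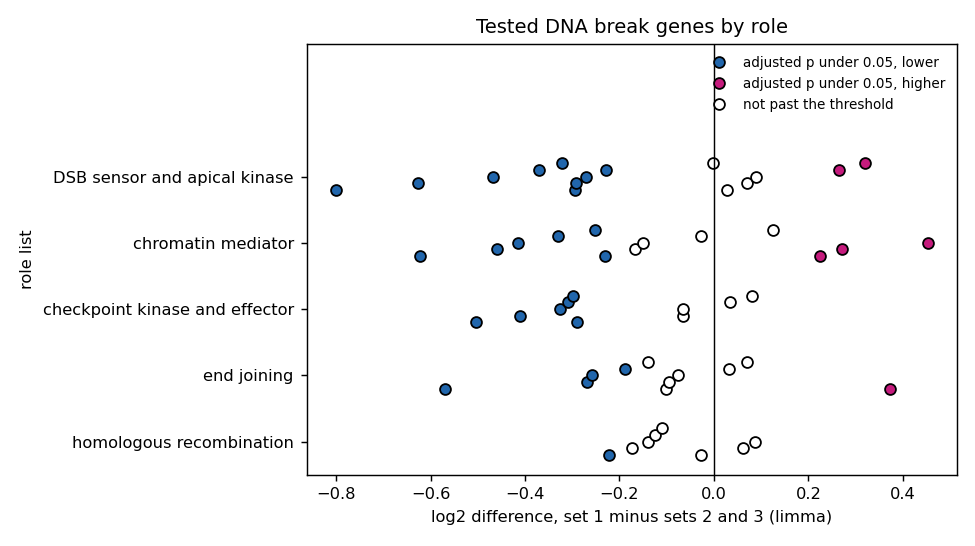
Log2 difference of set 1 from sets 2 and 3 (x axis) for each tested gene of the 5 role lists (y axis), 1 point per gene, spread vertically for sight only. Filled points passed an adjusted p of 0.05 by limma, blue lower and magenta higher. Blue points number 9 of 15 among sensors and apical kinases and 1 of 8 in homologous recombination, beside 21.1% of all probes. Of 14 measured genes of homologous recombination only those 8 were tested, and the lists were not tested against each other.

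Over the 12 arrays 3 of the 4 kinases ran together: Pearson r was 0.67 between Atm and Atr, 0.77 between Atm and Chek2 and 0.77 between Atr and Chek2. Chek1, which is at the background level in most arrays, had an r of −0.06 with Atm, −0.04 with Atr and −0.07 with Chek2. H2ax ran against Nbn (r −0.70), and Lig4 against Trp53bp1 (r −0.73). These values describe 12 arrays that share sets, litters and the foreign RNA described above, and Chek2 lies near the background level. Of 13188 named genes, those most like Atr in Pearson r over the 12 arrays were Orc2 (r 0.96) and Mis18a (0.94), those most like Atm were Scaf11 (0.96) and Fbxl20 (0.95), and those most like Nbn were Exoc5 (0.96) and Tm9sf3 (0.95). For H2ax they were Map3k10 (0.90) and Bloc1s4 (0.86), for Lig4 Tnfrsf25 (0.92) and Dnajc11 (0.81), and for Trp53bp1 Hdac11 (0.90) and Cul7 (0.88). Taking the highest of 13188 values over 12 arrays gives a high r even among unrelated genes, and no r was tested.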

How the data were processed

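Total RNA of each liver was labelled with biotin after 1 round of amplification and measured on a 1-colour Affymetrix array, per the labels' protocols. The authors deposited 1 log2 intensity per probe and array. Affymetrix Expression Console, GCOS 1.4 and PLIER appear in the submitters' processing notes; normalization, any added constant and the log base are not given in the sources used here, and base 2 was inferred from the range of 2.62 to 13.83. Of 28853 probes, 21789 had 1 gene symbol, 1621 several and 5443 none; 2 probes that list H2ax with other histone genes were left out.

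A single limma 3.58.1 fit (R 4.3.3) of 4 group means over 12 arrays with eBayes tested 20197 probes, the others having a mean under the 30th percentile (3.898). All 9 genes passed this filter. For set 1, the set was a term beside the groups. Two-sided p-values were adjusted by Benjamini-Hochberg over all tested probes, with a threshold of 0.05; SE is the moderated standard error. The fit was tested on simulated data without sets, litters or foreign RNA, and with planted differences larger than those of the 9 genes. That run does not show how the fit performs on data like these. The number of arrays limits the precision.

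The series text states that WT and KO mice of a set were littermates. Deviations from group means correlated, between KO and WT arrays of the same number, at 0.692, 0.135 and 0.623 for mTERT, then 0.458, 0.151 and 0.552 for mTR. Both KO arrays of set 2 correlated more with the WT array of set 3 (0.416 and 0.464). Set 1 differed from the other sets in both lines, so these values cannot tell littermates from arrays that only share a number. The pairing therefore rests on the labels and the series text. The members, lists and partners were chosen with earlier results of these data known. Named genes are the 9 members, partners chosen by role, and the 2 most similar genes for each member above background in all arrays; Rad52 was named after its value was seen. Alternatives were quantile normalization, median centring, other filters, eBayes with trend and robust settings, the compared groups alone, 1 probe per gene, the litter as a block, and leaving out single arrays, set 1, or the arrays with pancreas or muscle RNA (list mean over 1 above the lowest array). The random block was added after the data were seen.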

Additional observations from a re-analysis of the deposited data

How the results depend on the processing

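Over the 6 comparisons, 1188 values of the 9 genes were computed under alternatives with the same probe. Of these, 1040 kept their direction and their side of the threshold, 123 changed sign and 25 lost their call, all 25 for set 1; none of the 9 genes was called in a genotype comparison under any alternative run. With the litter as a replicate block, 0 probes passed in the mTERT and mTR comparisons, as without it, though probes with an unadjusted p under 0.05 rose from 283 to 1037 and from 195 to 851 by limma; the block changed no call. Without set 1, 1 probe passed in each of the mTERT, mTR and average comparisons. Without the pancreas-bearing arrays 72 probes passed for mTERT, 36 for the average, 38 for the difference between lines, 97 between WT groups and 272 for set 1, with 0 of the 9 genes among the latter. With the pancreas-bearing arrays left out, mTERT WT 3, which held muscle RNA, was the only mTERT WT array. For set 1, only mTR WT 1 was left, so each set 1 difference in that fit is mTR WT 1 minus mTR WT 3. The counts for mTERT, the average, the difference and the WT groups therefore rest on mTERT WT 3. Whether they come from that array or from leaving out pancreas RNA was not tested. With 1 probe per gene, 5064 passed for set 1, since fewer probes were tested. Leaving out single arrays gave 0 to 41 probes for mTERT, 0 to 28 for the average, 0 to 30 for the difference and 0 to 42 between WT groups, and 1 to 5 of the 9 genes for set 1, the 1 being Atr without mTR KO 1; it was 3 without mTERT KO 1 and 2 without mTERT WT 1.

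Signs turned in 11 values for mTERT, 28 for mTR, 39 for the average, 20 for the difference between lines, 20 between WT groups and 5 for set 1, and the cause was not tested. In the average 8 of the 9 genes turned at least once, most often Brca1 (9), Atm (8) and Atr (7), and H2ax did not. In the difference Atr turned most often (6), and between WT groups Atm (5). In the mTERT line without pancreas-bearing arrays, Atm was −0.0751 and Chek2 −0.0259; without set 1, Atr was 0.0642; the other Nbn probe gave 0.0102. Leaving out single arrays gave −0.239 to 0.263 for Atr, −0.0854 to 0.139 for Chek1, −0.0237 to 0.244 for Chek2, −0.180 to 0.0153 for Nbn and −0.0530 to 0.101 for Brca1. In the mTR line H2ax was −0.00796 with median centring, −0.0283 without set 1 and −0.170 without pancreas-bearing arrays; Atr was 0.00860 with quantile normalization and 0.248 without pancreas-bearing arrays; Chek1 was −0.0180, −0.00470 and −0.0744 with quantile normalization, median centring and without pancreas-bearing arrays; Trp53bp1 was −0.0698 without the latter. Nbn was 0.0760 by its other probe, 0.0190 with quantile normalization, 0.0926 without set 1 and 0.213 without pancreas-bearing arrays. Leaving out single arrays gave −0.105 to 0.0776 for H2ax, −0.232 to 0.124 for Atr, −0.0648 to 0.0923 for Chek1, −0.0123 to 0.180 for Trp53bp1, −0.132 to 0.174 for Nbn and −0.0607 to 0.0335 for Brca1. For set 1 without pancreas-bearing arrays Lig4 was 0.216, Brca1 0.00289, Xrcc4 0.0869 and Rad52 0.0205, and Atm in the difference between lines 0.00646; leaving out single arrays gave −0.0292 to 0.116 for Chek1 and −0.0656 to 0.0398 for Brca1. A filter at the 50th percentile left out Chek2, Chek1 and Brca1; a fit of only the groups compared equals that over all groups for the average and the difference and was not run again.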

Other observations

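Several of the 9 genes share their start region with a neighbour read in the opposite direction, a pattern looked at after other values were seen. In the RefSeq table of build GRCm38.p6, 4 of the 7 members present (57.1%) had a neighbour that started within 1000 bases on the other strand, against 3311 of 27025 genes (12.3%). The start of Npat, which codes for a regulator of histone genes, lies 376 bases from that of Atm. Npat was also lower in set 1, at −0.34 (SE 0.0685, adjusted p 0.00234 by limma) beside −0.32 for Atm. Without the pancreas-bearing arrays, which leaves mTR WT 1 alone for set 1, Npat was at −0.27 and the call was lost. Nbr1, 152 bases from Brca1, was at −0.08 in set 1 (adjusted p 0.341 by limma), and Abhd13, 37 bases from Lig4, at −0.07 (adjusted p 0.486 by limma). The neighbour of Atr, 1700065D16Rik, 80 bases away, read below the filter and was not tested. Over the 12 arrays the 4 pairs did not run alike. Pearson r was 0.69 for Atm with Npat, 0.40 for Lig4 with Abhd13, −0.19 for Brca1 with Nbr1 and −0.62 for Atr with 1700065D16Rik. In the KO comparisons Npat differed by 0.03 (SE 0.165) in the mTERT line and −0.14 (SE 0.165) in the mTR line.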
